A study of Mus musculus with 3 samples.

Results

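The transcripts of 10 components of the Nodal and Activin pathway were examined in ALSCs, primed stem cells of the mouse. The members were the rows of the deposited count table whose gene name was Nodal, Lefty1, Lefty2, Tdgf1, Acvr1b, Acvr2a, Acvr2b, Smad2, Smad3 or Foxh1, which made 10 of the table's 55421 named genes. ALSCs were derived from epiblasts of E6.5 gastrulae and grown with Activin A and LIF (AL medium). The gastrulae came from ICR females crossed with GOF/GFP males of a mixed background, which carry an Oct4 reporter. PolyA RNA was sequenced in 3 libraries (ALSC replicates 1, 2 and 3). All were labelled ALSC, the paper's name for cells of this cross and medium, so the data hold 1 group and no contrast between conditions. The labels give no batch. The study describes its RNA-seq samples as biological replicates, but the labels do not say whether the libraries came from separate cultures or from how many derived lines, so the p-values below measure only the spread between these libraries, which may be technical. Activin A was in the medium of every library, and no library without it was analysed here.

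Nodal and Activins are secreted ligands of the TGF-beta superfamily. They bind a type II receptor (ACVR2A or ACVR2B), which phosphorylates the type I receptor ALK4, encoded by Acvr1b. Nodal also needs a GPI-linked co-receptor of the EGF-CFC family, such as Cripto, encoded by Tdgf1, whereas Activin does not. The active receptor phosphorylates SMAD2 and SMAD3, which join SMAD4, enter the nucleus and bind DNA with partners such as FOXH1. Lefty1 and Lefty2 are direct targets of this signal and encode secreted antagonists of Nodal, and Nodal itself is a further known target. In the epiblast the pathway sustains pluripotency before gastrulation and patterns the anterior-posterior axis and the primitive streak, and primed stem cells in culture depend on it.

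All 10 members were expressed at more than 1 FPKM (counts per kilobase of gene length, scaled to the library's total) in every library, and their levels spanned a 142-fold range. Lefty1 and Tdgf1 were far above the rest, Foxh1 came next, and the ligand Nodal, its antagonist Lefty2, the receptors and the receptor SMADs lay lower. The members together held 0.172%, 0.176% and 0.166% of all counts on named genes in replicates 1, 2 and 3. Lefty1 and Tdgf1 alone took 82.8%, 78.8% and 78.1% of these. The median of the 10 mean levels was 12.2 FPKM. The libraries were of like depth, with 18037342 to 18724038 counts each, and 11125 named genes reached 1 FPKM in all of them. Replicate 1 stood apart from the others over the whole table: edgeR's common biological coefficient of variation was 0.153 with all libraries and 0.0531 without replicate 1. Results that rest on replicate 1 are therefore given with and without it. RNA was taken from whole cultures, so fewer cells expressing a gene and less RNA per cell cannot be told apart.

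Lefty1 and Lefty2 lie near each other on chromosome 1 and are close copies, so their sequences show what the counts can separate. Their coding sequences (GENCODE M21, GRCm38) were of the same length, 1107 bases, and differed at 90 of these, which gave an identity of 91.9%. The stretch where they differed most was a 60-base window in exon 1 with 18 mismatches, at chr1:180935143-180935202 in Lefty1 and chr1:180893217-180893276 in Lefty2, both on the plus strand and both coding. Capitals mark the mismatched bases.
Lefty1: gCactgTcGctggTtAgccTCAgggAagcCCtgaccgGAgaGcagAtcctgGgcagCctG
Lefty2: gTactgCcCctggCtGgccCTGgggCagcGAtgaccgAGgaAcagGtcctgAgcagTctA
At the other end, 140 coding bases in a row were identical, of which 135 lay in exon 3 (chr1:180937009-180937143 in Lefty1 and chr1:180894596-180894730 in Lefty2). The longest coding transcripts were cut into every possible 50-base word, and 82.1% of the words of Lefty1 and 88.4% of those of Lefty2 occurred in no other gene. A stretch of 50 bases from the shared words cannot be assigned by sequence to either gene. The word length was a setting of the search, and the paper describes paired-end reads. The share of shared words is therefore not the share of reads that fit both genes. The levels of Lefty1 and Lefty2 are uncertain to an extent that was not measured.

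The primers that the study used for RT-qPCR of Lefty1 fall in exon 1, where the copies differ, and would give an 84-base product from the coding part of Lefty1 (chr1:180935237-180935320). They are shown with the genomic sites in the orientation of each primer, with mismatches to the primer in capitals. Positions count from 1 at the primer's 5′ end, and the primer's base stands first.
forward primer: tggacaaggctgatgaggaa
Lefty1 forward site: tggacaaggctgatgTggaa
Lefty2 forward site: tggacaGCgcGgatgTggaG
reverse primer: tggcatggctgtgttgtagc
Lefty1 reverse site: tggcatggctgtgttgtagc
Lefty2 reverse site: CAgcGtgActTCCCtgCagc
The forward primer had 1 mismatch to the reference sequence of Lefty1 (A16T) and 5 to Lefty2 (A7G, G8C, T11G, A16T and A20G). The reverse primer matched Lefty1 without a mismatch and had 9 mismatches to Lefty2.

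Tdgf1 has a processed copy, Tdgf1-ps1, which lies on another chromosome (chr16:3730510-3731022, plus strand, 513 bases, a single exon). Its sequence matched the Tdgf1 coding sequence at 506 of 513 aligned bases (98.6%). The 7 differences were C50T, T150C, T281C, G436A, C443T, C464T and A513T, counted from 1 at the first coding base, with the base of Tdgf1 first. Between the third and the fourth of them lies a run of 154 identical bases, from coding base 282 to 435, which joins parts of exons 4, 5 and 6 of Tdgf1 and is unbroken in the copy (chr16:3730791-3730944). It is shown because reads inside it fit both genes, and it holds no mismatch to mark.
shared run: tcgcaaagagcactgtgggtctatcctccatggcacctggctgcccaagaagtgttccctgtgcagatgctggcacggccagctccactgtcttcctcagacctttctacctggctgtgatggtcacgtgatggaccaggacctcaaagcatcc
Of the 50-base words of Tdgf1-ps1, 50.9% also occurred in Tdgf1, and these were 12.5% of the words of Tdgf1. Within the coding sequence, 49.5% of the words of Tdgf1 occurred in no other gene.

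Promoter windows in the RefSeq table (GRCm38.p6) were found for 6 members, namely Nodal, Tdgf1, Acvr1b, Acvr2a, Acvr2b and Smad3. Among them only Tdgf1 held a match to AATNNACA, a core of the FOXH1 motif, within 250 bases before to 50 after the start, searched on both strands. It held 2 matches, with their first bases 127 and 101 bases upstream of the start, both on the gene's own strand and both with the letters AATTTACA. At least 1 match was present in 12.2% of 32851 windows of the same length, and 2 or more in 1.4%. The 250 bases upstream of Tdgf1 (chr9:110946159-110946408, minus strand) are shown with the 2 matches in capitals.
Tdgf1 upstream: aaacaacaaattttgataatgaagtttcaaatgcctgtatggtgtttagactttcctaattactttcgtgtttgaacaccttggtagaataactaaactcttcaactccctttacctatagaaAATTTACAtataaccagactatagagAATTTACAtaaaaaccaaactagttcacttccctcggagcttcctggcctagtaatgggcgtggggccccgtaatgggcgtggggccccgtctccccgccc
With A or C required at both free positions, a stricter form of the motif, Tdgf1 held no match, and 4.4% of all windows held 1 or more. The SMAD motif CAGAC, whose match in Tdgf1 overlapped neither FOXH1 match, had 1 match each in Tdgf1, Acvr2a and Acvr2b and none in Nodal, Acvr1b and Smad3, against 49.6% of all windows with at least 1. The palindrome GTCTAGAC was in none of the 6 windows and in 0.2% of all.

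Nodal (ENSMUSG00000037171, chr10:61417972-61425338, plus strand), the ligand, had 683, 685 and 561 counts in replicates 1, 2 and 3. These were 18.0, 17.5 and 14.8 FPKM, a mean of 16.8 ± 1.70 (SD, n = 3). Nodal came after Lefty1, Tdgf1 and Foxh1 and was higher than 70.1% of the expressed genes, and replicate 3 was the lowest library.

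Lefty1 (ENSMUSG00000038793, chr1:180935022-180938400, plus strand), the antagonist, had 11956, 11589 and 10217 counts, or 376, 352 and 322 FPKM. Its mean was 350.1 ± 26.9 FPKM (SD, n = 3), higher than 98.5% of expressed genes. Lefty2 (ENSMUSG00000066652, chr1:180893108-180899103, plus strand), which encodes the second Lefty protein, had 686, 641 and 557 counts, or 14.5, 13.1 and 11.8 FPKM. The mean of Lefty2 was 13.2 ± 1.35 FPKM (SD, n = 3). In FPKM, replicate 1 was the highest and replicate 3 the lowest library for both antagonists. In TPM, where counts per base of length are scaled to the same sum in each library, replicate 2 was the highest. Those values were 963, 1019 and 915 for Lefty1 and 37.2, 37.9 and 33.6 for Lefty2. Lefty1 exceeded Lefty2 by 25.9, 26.9 and 27.2-fold in FPKM within replicates 1, 2 and 3. The log2 ratio was 4.74 ± 0.04 (SD, n = 3), so the ratio was nearly constant although both levels differed between libraries. Of the counts on both genes, 94.6%, 94.8% and 94.8% fell on Lefty1, with 95% Wilson intervals from 94.2% to 95.2% over the libraries that cover counting error only. Counted per word found in no other gene in place of gene length, Lefty1 exceeded Lefty2 by 29.8-fold. Lefty1 exceeded the ligand Nodal by 20.9, 20.2 and 21.7-fold in FPKM, whereas Lefty2 stood at 0.806, 0.751 and 0.797 of Nodal. Per word found in no other gene, the mean ratios to Nodal were 27.8 for Lefty1 and 0.933 for Lefty2.

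Tdgf1 (ENSMUSG00000032494, chr9:110939603-110946158, minus strand), the Nodal co-receptor Cripto, had the most counts of all members: 13807, 14356 and 13200. Its levels of 291, 292 and 279 FPKM gave a mean of 288 ± 7.34 (SD, n = 3), higher than 98.2% of expressed genes. In FPKM, Tdgf1 had the smallest relative spread of the members, 2.55%. In TPM it stood at 746, 846 and 792, with replicate 1 the lowest, so its spread depended on the unit. Tdgf1-ps1 was listed with 1076, 1299 and 1289 counts, or 130 ± 12.5 FPKM (SD, n = 3). That was 7.23%, 8.30% and 8.90% of the counts on both rows, where the 95% Wilson interval in replicate 1 (6.82% to 7.66%) did not reach those of the others (from 7.88% and from 8.44%). Whether the counts on the copy came from its own transcript or from Tdgf1 was not tested, and with them added Tdgf1 stood at 313 FPKM. The other EGF-CFC co-receptor, Cfc1 (Cryptic), had only 4, 5 and 2 counts.

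Acvr1b (ENSMUSG00000000532, chr15:101174067-101213684, plus strand), the type I receptor ALK4, had 742, 982 and 1014 counts. These were 9.28, 11.9 and 12.7 FPKM, a mean of 11.3 ± 1.79 (SD, n = 3). Acvr1b was 1.17, 1.07 and 1.28 times the level of Tgfbr1, which encodes the TGF-beta type I receptor. With the length of the longest coding transcript the mean ratio was 1.03 and no longer over 1 in every library, so the levels of these genes are not told apart. Replicate 1 was the lowest library for Acvr1b, as it was for both type II receptors.

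Acvr2a (ENSMUSG00000052155, chr2:48814109-48903269, plus strand), a type II receptor, was the lowest of the members, with 206, 306 and 258 counts. Its 2.0, 2.87 and 2.52 FPKM gave a mean of 2.46 ± 0.438 (SD, n = 3), higher than 15.3% of expressed genes. Part of its sequence, 446 bases, overlaps Orc4 on the opposite strand, which had 960, 830 and 853 counts, and 93.0% of its words occurred in no other gene. Whether reads were counted by strand is not given in the sources used here, so reads of Orc4 in this overlap may be among the counts of Acvr2a.

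Acvr2b (ENSMUSG00000061393, chr9:119402118-119434995, plus strand), the other type II receptor, had 237, 897 and 735 counts. Its 3.34, 12.2 and 10.4 FPKM gave a mean of 8.64 ± 4.68 (SD, n = 3), a relative spread of 54.2% and the widest of the members. Replicate 1 alone was low, at 0.310 of the mean of the others on the TMM scale, and all words of Acvr2b were found in no other gene. The long noncoding RNA Gm47320, which overlaps it on the opposite strand, had 0, 3 and 0 counts. Acvr2b was above Acvr2a in every library, by 1.67-fold in replicate 1 and by 4.24 and 4.12-fold in replicates 2 and 3. Of the counts on both type II receptors, Acvr2b took 53.5% in replicate 1 (95% Wilson interval 48.8% to 58.1%), 74.6% in replicate 2 (72% to 76.9%) and 74.0% in replicate 3 (71.2% to 76.6%). The balance of the type II receptors was thus alike in replicates 2 and 3 and lay elsewhere in replicate 1.

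Smad2 (ENSMUSG00000024563, chromosome 18, plus strand), a receptor-activated SMAD, had 724, 976 and 959 counts, or 4.56, 5.94 and 6.05 FPKM. Its mean was 5.52 ± 0.832 FPKM (SD, n = 3). Smad3 (ENSMUSG00000032402, chr9:63646767-63757994, minus strand), the second SMAD of this branch, had 533, 914 and 789 counts, or 5.32, 8.81 and 7.89 FPKM. The mean of Smad3 was 7.34 ± 1.81 FPKM (SD, n = 3), and replicate 1 was the lowest library for both genes. Smad2 stood at 0.857, 0.674 and 0.767 of Smad3, so that Smad3 was the higher in all 3 libraries although the ranges of the genes overlapped. By counts, which do not allow for the greater length of Smad2, Smad3 took 42.4%, 48.4% and 45.1% of the pair. Their coding sequences were 77.1% identical, and no 50-base word of either occurred in another gene. Smad4, the shared partner of both, was 5.31, 5.51 and 5.0 times the level of Smad2.

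Foxh1 (ENSMUSG00000033837, chr15:76668225-76669948, minus strand), the forkhead partner of the SMADs at Nodal targets, had 1535, 1568 and 1685 counts. These were 62.2, 61.3 and 68.4 FPKM, a mean of 64.0 ± 3.88 (SD, n = 3), higher than 91.7% of expressed genes. Foxh1 was the only member highest in replicate 3 apart from Acvr1b and Smad2. It has the shortest gene length of the members, 1365 bases, and 100% of its words occurred in no other gene.

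**Figure D1:**
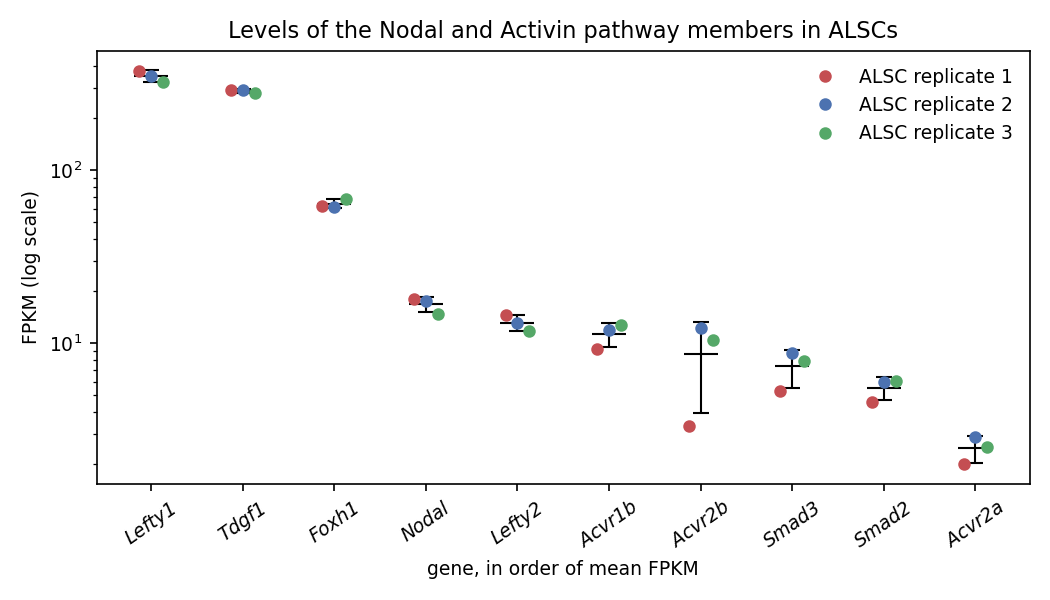
FPKM of each member (log scale) in the 3 ALSC libraries, as coloured points, with the mean as a bar and the SD as whiskers, ordered by mean. Lefty1 and Tdgf1 stand near 350.1 and 288 FPKM, Foxh1 at 64.0, and the other 7 between 2.46 and 16.8, with replicate 1 of Acvr2b far below its other points.

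The order by mean level was Lefty1, Tdgf1, Foxh1, Nodal, Lefty2, Acvr1b, Acvr2b, Smad3, Smad2 and Acvr2a. Neighbours were taken to differ only where their ranges over the libraries did not overlap, since a two-sided exact sign test over 3 libraries cannot go below p = 0.25. The ranges lay apart in 5 of the 9 neighbouring pairs. These were Lefty1 over Tdgf1 (1.22-fold), Tdgf1 over Foxh1 (4.49-fold), Foxh1 over Nodal (3.81-fold), Nodal over Lefty2 (1.28-fold) and Smad2 over Acvr2a (2.24-fold). From Lefty2 through Acvr1b, Acvr2b and Smad3 to Smad2 each gene overlapped the next, so this middle part of the order is not resolved. The place of Lefty1 over Tdgf1 depended on the gene length used. With the length of the longest coding transcript, Tdgf1 (390.2 FPKM) was above Lefty1 (379.9 FPKM), and the ranges of these genes overlapped. Nodal and Lefty2 (13.9 FPKM on that length) overlapped as well, and 3 of the 9 pairs lay apart.

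**Figure D2:**
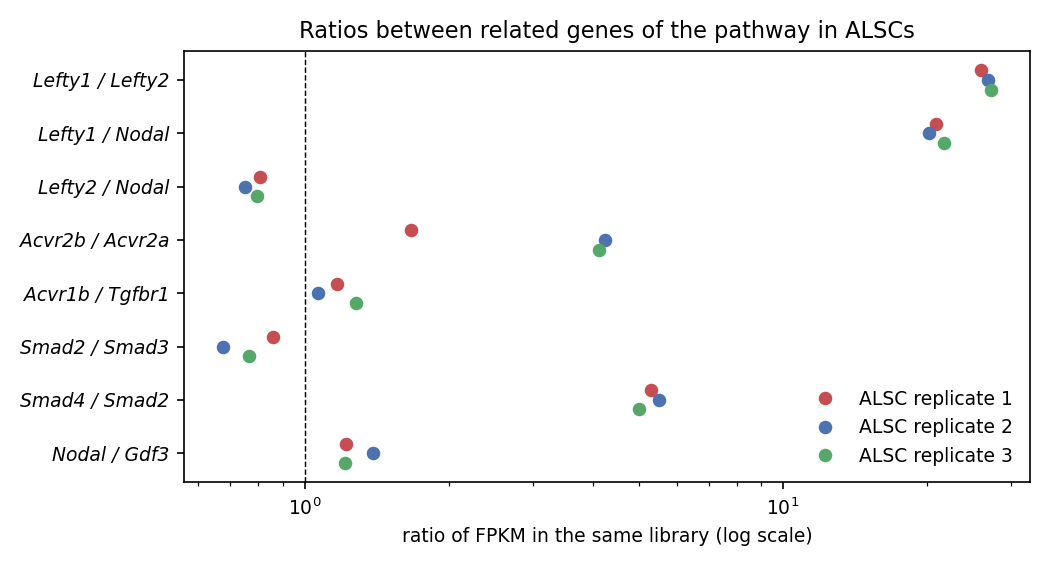
Ratio of FPKM of the first to the second named gene within each library (log scale), with a point for each of the 3 libraries and a dashed line at equal levels. Lefty1 lies 20.2 to 27.2-fold above Nodal and Lefty2 in every library, and Acvr2b over Acvr2a is the ratio with the widest spread, from 1.67 to 4.24.

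On the TMM scale Nodal, Lefty1, Lefty2, Tdgf1 and, by very little, Foxh1 were higher in replicate 1 than in the mean of replicates 2 and 3, and the 3 receptors, Smad2 and Smad3 were lower, but Lefty1, Tdgf1 and Foxh1 turned once trends on gene length and GC content were removed. In a chi-square test of homogeneity on TMM-scaled library sizes, all 10 members varied between the libraries by more than counting error (Benjamini-Hochberg adjusted p under 0.05), whereas 47.2% of the 16944 genes tested did. The test finds smaller differences at higher counts, and the members held from 770 to 41363 counts in all. Among genes with 100 or more counts 60.7% were called. Lower in replicate 1 than the mean of the others were 5 members and higher were 5, against 23.8% and 23.4% of all genes that were called and lower or higher. Called or not, 50.3% of the genes tested were lower in replicate 1.

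Acvr2b had the largest difference of the members, with a log2 ratio of replicate 1 to the mean of replicates 2 and 3 of -1.69 (adjusted p = 1.29e-70). Of 10573 genes that averaged 100 counts or more per library, 15 had a ratio as low, Acvr2b included. Smad3 followed at -0.58 (adjusted p = 2.78e-15). The other members of the lower group lay close together, Acvr2a at -0.36 (adjusted p = 0.00821), Acvr1b at -0.34 (adjusted p = 3.24e-07) and Smad2 at -0.33 (adjusted p = 4.57e-06). In the higher group, the log2 ratio was 0.29 for Lefty2 (adjusted p = 0.000197), 0.23 for Lefty1 (adjusted p = 1.95e-46) and 0.23 for Nodal (adjusted p = 0.000637). Tdgf1 was at 0.10 (adjusted p = 3.77e-10), and Foxh1 at 0.01 (adjusted p = 0.00508), where replicate 1 lay between replicates 2 and 3. The relative spread over all libraries was 7.70% for Lefty1 and 10.1% for Nodal, beside a median of 10.6% over genes of 100 or more counts on average, so these differences exceeded counting error without being wide for these libraries.

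Gene length moved with this split. The 5 members lower in replicate 1 were 3928 to 8781 bases long and the 5 higher were 1365 to 2622. Over all genes, in 20 groups by length, the median log2 ratio of replicate 1 ran from 0.39 in the shortest group (66 to 1092 bases) to -0.53 in the longest (12741 to 123179 bases). Nodal, Lefty1 and Smad2 lay near the medians of their own length groups, which were 0.21, 0.28 and -0.26, and Acvr2b lay furthest from its own, which was at 0.00. With the trends on length and GC content removed, the ratio was -1.65 for Acvr2b, -0.43 for Smad3, -0.38 for Acvr2a, -0.30 for Acvr1b and -0.13 for Smad2. Nodal then stood at 0.05 and Lefty2 at 0.14, and Tdgf1 (-0.14) and Foxh1 (-0.29) turned to lower in replicate 1, with Lefty1 close to no difference. So 8 of 10 members were lower in replicate 1 on that scale, beside 5280 of 10573 genes. What made replicate 1 differ was not tested.

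**Figure D3:**
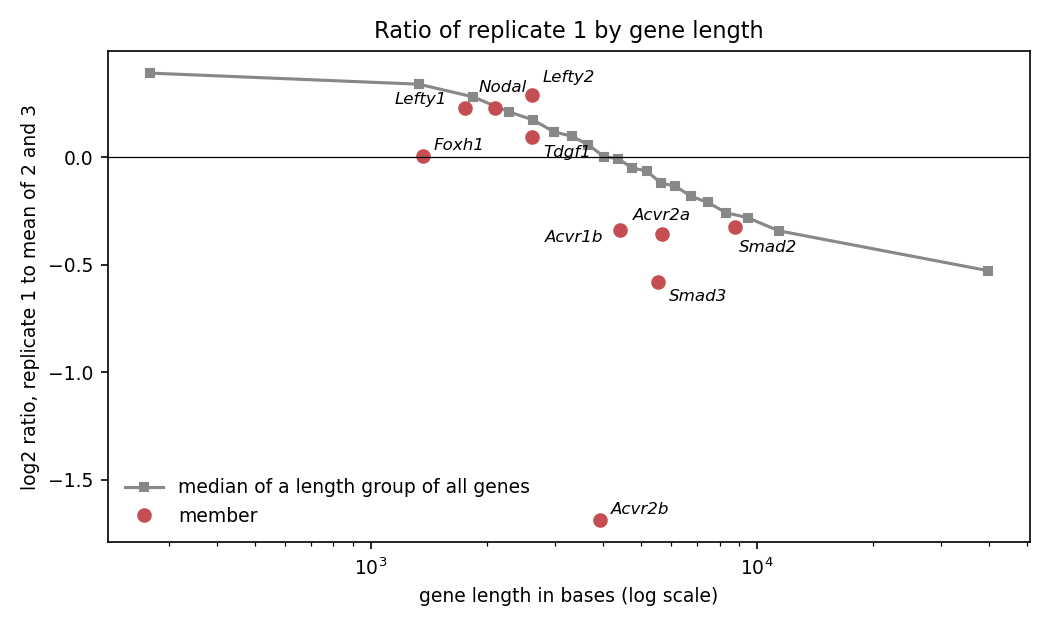
Log2 ratio of replicate 1 to the mean of replicates 2 and 3 (TMM-scaled) against gene length in bases (log scale), with the 10 members as red points and the median of each of 20 length groups of all genes as a grey line. The medians fall from 0.39 to -0.53 with length, and Acvr2b at -1.69 is the member furthest below the line.

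Without replicate 1, 3 members were called (Lefty1, Acvr2b and Foxh1), beside 8.11% of 16062 genes. The difference between replicates 2 and 3 that remained in Acvr2b was small, 12.2 against 10.4 FPKM (adjusted p = 0.0416). Lefty1 was lower in replicate 3 (352 against 322 FPKM, adjusted p = 4.67e-06), and Foxh1 was higher there (61.3 against 68.4 FPKM, adjusted p = 0.00881). For the other 7 members replicates 2 and 3 were not told apart by counting error, with adjusted p from 0.0863 (Tdgf1) to 0.729 (Smad2). Without replicate 2 and without replicate 3, 8 members each were called, beside 42.9% and 46.7% of all genes tested.

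The rest of the pathway was followed in 42 genes listed by role. Of these, 30 reached 1 FPKM in every library, and 4 were at 3 counts or fewer in each: the ligand genes Gdf1, Inhbb and Mstn, with 0 counts, and the Nodal type I receptor gene Acvr1c (ALK7), with 0, 0 and 2. A count of 0 allows up to 3 counts, which for Inhbb is 0.0386 FPKM averaged over the libraries. Of 38 genes tested, 19 varied between the libraries, 12 of them lower and 7 higher in replicate 1, and 4 were called without replicate 1. These counts are read beside 47.2% of all genes called with all libraries, to which the 19 of 38 were close, and 8.11% without replicate 1.

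Among the 8 other ligands 3 reached 1 FPKM. Gdf3, a Nodal-related ligand that also uses Cripto, was the highest at 14.8, 12.5 and 12.2 FPKM, or 13.2 ± 1.41 (SD, n = 3), and Nodal was 1.22, 1.39 and 1.22 times its level. Inhba, which encodes the subunit of Activin A itself, had 5, 2 and 6 counts. With Inhbb at 0 counts, transcripts of Inhba and Inhbb, the Activin subunit genes in the list, were at or near the limit of detection. The cells were given Activin A in the medium. Gdf1 shares 1771 bases with Cers1 on the same strand, so its 0 counts may rest on how overlapping reads were handled. Inha stood at 2.17 and Tgfb1 at 2.15 FPKM. The convertase genes Furin and Pcsk6, whose products cleave the Nodal precursor, were at 2.50 and 1.41 FPKM. Furin was lower in replicate 1 (log2 ratio -0.44, chi-square adjusted p = 8.64e-06). The median of the length group of Furin was -0.28, and with the trends on length and GC content removed Furin stood at -0.11.

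Of the 7 other receptors and co-receptors 4 reached 1 FPKM. The BMP receptor gene Bmpr1a was the highest at 17.5 ± 1.89 FPKM (SD, n = 3), above Acvr1b, Acvr2a and Acvr2b, and Tgfbr1 was at 9.67 ± 1.61. Its partner Tgfbr2, the type II receptor for TGF-beta, was at 0.420 ± 0.0808 FPKM (SD, n = 3). Bmpr1a and Tgfbr1 were called and lower in replicate 1 (log2 ratios -0.21 and -0.33). Of the others at 1 FPKM, Acvr1 (0.002) and Bmpr2 (-0.11) were not called (chi-square adjusted p = 0.998 and 0.376). With the trends on length and GC content removed, 2 of these 4 receptor genes were lower in replicate 1 and 2 were higher. Other extracellular antagonists were far below Lefty1: Cer1, which binds Nodal, was at 5.14 ± 0.771 FPKM (SD, n = 3), Fst, which binds Activin, at 2.79 ± 0.129, and Dand5 at 1.42 ± 0.119. Bambi, a decoy receptor, was at 4.78 ± 0.816 FPKM (SD, n = 3), and was the antagonist called as varying, higher in replicate 1 (log2 ratio 0.47, adjusted p = 1.52e-07).

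All 12 SMAD partners and regulators reached 1 FPKM in every library. Smad4 was the highest at 24.2, 32.7 and 30.2 FPKM, or 29.0 ± 4.38 (SD, n = 3). The corepressor genes Ski, Tgif1 and Skil were at 15.3, 13.0 and 12.6 FPKM, and the inhibitory Smad7, itself induced by TGF-beta signals, at 9.09 ± 0.960 (SD, n = 3). In this list 10 of 12 genes were called, 9 lower and 1 (Tgif1) higher in replicate 1, beside 23.8% and 23.4% of all genes. The 12 genes held from 457 (Smad6) to 6942 (Ppm1a) counts in all. Among genes with 100 or more counts 60.7% were called in either direction. Tgif2 had the lowest ratio, a log2 ratio of -0.78 (adjusted p = 2.45e-09). The median log2 ratio of the list was -0.31 and became -0.14 with the trends on length and GC content removed, while that of all genes was 0.00 on both scales.

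Of the 8 Nodal target genes examined 5 reached 1 FPKM. Fgf8, a primitive streak gene, was the highest at 53.4, 46.9 and 46.3 FPKM, or 48.9 ± 3.90 (SD, n = 3). The mesendoderm genes were lower, with Gsc at 3.61, Foxa2 at 1.96, Eomes at 1.32, Lhx1 at 0.992, T at 0.754 and Mixl1 at 0.478 FPKM. Beside these 8 target genes, Nodal and Lefty2, Lefty1 at 350.1 FPKM was by far the most abundant transcript. Of the 8 target genes tested, 4 (Fgf8, Pmepa1, Gsc and Foxa2) were called and higher in replicate 1 than the mean of the others. This is read beside 23.4% of all genes tested that were called and higher. Called or not, 5 of the 8 target genes were higher in replicate 1 and 3 were lower. For Foxa2 the log2 ratio was 0.06, and replicate 3 was its highest library, at 2.55 FPKM. With the trends removed, Pmepa1 stood at 0.42 while Fgf8 was at -0.03, and Gsc and Foxa2 had too few counts for that scale.

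**Figure D4:**
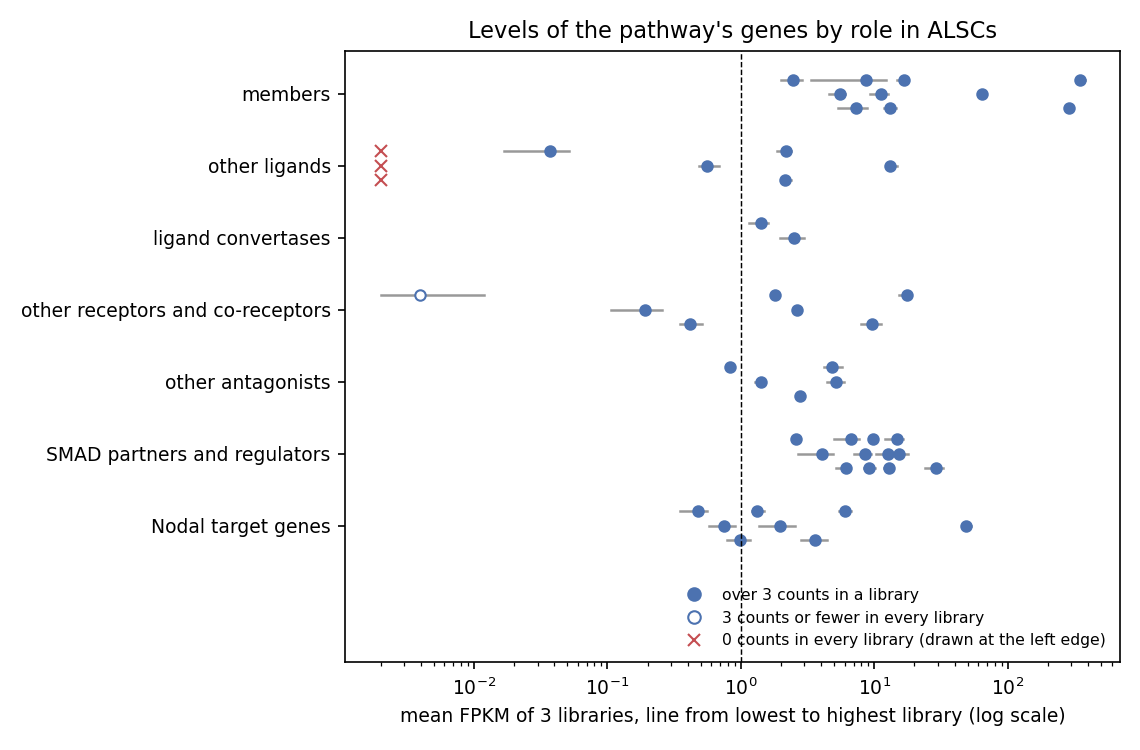
Mean FPKM of the 10 members and of 42 other genes of the pathway by role (log scale), with a line from the lowest to the highest of 3 libraries and a dashed line at 1 FPKM. Genes with 0 counts in every library are crosses at the left edge, and a line that starts there has a library at 0. Lefty1 and Tdgf1 lie above every other gene of the pathway, and the 12 SMAD partners all lie above 1 FPKM.

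The labelled cell type was checked against markers. All 5 epiblast markers were expressed, with Pou5f1 at 648, Nanog at 171 and Sox2 at 119 FPKM, and with Otx2 at 5.08 and Fgf5 at 3.89. None of 8 markers of extraembryonic endoderm reached 1 FPKM in every library, their summed level was 0.911 to 1.89 FPKM, and Ttr was at 0 counts. The detected markers of that list were Amn, a visceral endoderm gene, with 46, 36 and 17 counts, Sox17 with 26, 23 and 21, and Gata6 with 11, 13 and 10. Of 5 trophoblast markers Tfap2a alone was detected, with 4, 10 and 7 counts. None of the 5 reached 1 FPKM in every library, and their summed level was 0.0728 to 0.133 FPKM. Of 6 fibroblast markers Col1a1 alone did (5.04 FPKM), with Dcn and Lum at 0 counts. Some of these markers differed in replicate 1: Col1a1 (log2 ratio -0.40, adjusted p = 6.27e-10) and Col1a2 (-0.92, adjusted p = 0.011) were lower there, and Amn was higher (0.90, adjusted p = 0.00243). The median of the length group of Col1a1 was -0.18, and with the trends on length and GC content removed Col1a1 stood at -0.17. Col1a2 and Amn had too few counts for that scale. The summed level of the fibroblast markers was 4.18, 6.5 and 5.21 FPKM in replicates 1, 2 and 3, and that of extraembryonic endoderm was 1.89, 1.49 and 0.911. Their part in the members' differences was not tested. Cer1 and Lefty1 are also genes of the visceral endoderm, of whose markers Hnf4a, Afp and Ttr were at 2 counts or fewer in each library while Amn was detected.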

How the data were processed

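Polyadenylated RNA of 3 ALSC libraries was sequenced with an Illumina TruSeq kit. The authors deposited raw counts of reads per gene, unnormalized, with Ensembl identifiers, positions and gene lengths. The submitters' processing notes name HISAT2 2.0.5. The paper's methods give GRCm38. The counting program and its handling of strand and of reads with several matches are not given in the sources used here. In the table, 3 further columns match no sample of this series and were not used. Rows without a gene name (317 of 55738, 0.165% to 0.182% of counts) were left out.

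FPKM was computed from counts, table length and the total on named genes. Ratios between libraries used edgeR's TMM factors (0.968, 1.02 and 1.01). The chi-square test covered genes with 10 or more counts in total and covers counting error only, as do the intervals, since PCR copies of a molecule could not be told apart. The chi-square test was also run on simulated counts with set changes and counting error only. That run cannot show how the test behaves with other spread between libraries. Trends were medians over 20 groups by gene length and then by GC content, for genes that averaged 100 counts or more. Transcripts came from GENCODE M21. Tools were R 4.3.3, edgeR 4.0.16, DESeq2 1.42.0, Python 3.11.15, SciPy 1.17.1, pandas 2.3.3 and Biopython 1.88.

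The members and lists were chosen with earlier results of these data known. All members were named, and, of each other list, the gene with the highest level and every gene not detected in the pathway, with further genes of the lists. A further gene of the lists in the original design is not reported here. Alternatives covered library size, unit, gene length, filters, thresholds, unique words and leaving out each replicate. The stricter FOXH1 motif and the sum of Tdgf1 and its copy were added after the data had been seen.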

Additional observations from a re-analysis of the deposited data

How the results depend on the processing

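No paired analysis was possible because all libraries belong to 1 group and no groups share replicate numbers. As TPM in place of FPKM, the median level of the members was 33.8 TPM. The change of unit also moved the libraries against each other. In TPM, replicate 2 and not replicate 1 was the highest library for Nodal, Lefty1 and Lefty2. Replicate 1 became the lowest library for Tdgf1 and Foxh1. With the longest coding transcript as length, 3 neighbouring pairs in the order lay apart in place of 5. Leaving out each replicate in turn gave 5 to 7 such pairs, a median level of 12.1 to 12.4 FPKM, 3 to 8 members called as varying, 7 of 9 gene pairs over 1 in every library and 30 to 31 of 42 pathway genes at 1 FPKM or more. Members lower in replicate 1 numbered 6 without replicate 2 and 5 without replicate 3. Gene pairs over 1 in every library were 6 of 9 with the longest coding transcript or with unique words, where Acvr1b was no longer above Tgfbr1 throughout. Only leaving out replicate 1 took the count of called members to 3, and the 7 calls it ended were those of Nodal, Lefty2, Tdgf1, Acvr1b, Acvr2a, Smad2 and Smad3. With the trends on length and GC content removed, 8 members were lower in replicate 1, and the direction turned for Lefty1 (log2 ratio -0.0064), Tdgf1 (-0.14) and Foxh1 (-0.29). Foxh1 also turned with no composition factor (-0.062), and it ranged from -0.0802 without replicate 2 to 0.0994 without replicate 3, so its direction is not settled. The cause was not tested. DESeq2 size factors, no composition factor and filters of 1 or of 100 counts left all 10 members called. With 1 condition, no effect of Activin A or LIF on these genes could be measured. Reads shared by Lefty1 and Lefty2, and by Tdgf1 and Tdgf1-ps1, limit those levels. Acvr1c had too few counts for the chi-square test. Inhba and Cfc1 were tested on only 13 and 11 counts in all and were not called (chi-square adjusted p = 0.427 and 0.649).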
